A study of Mus musculus with 8 samples.

Results

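The mRNAs of 8 genes of cholesterol synthesis were followed in C2C12 cells, an immortalized line of mouse myoblasts, in growth medium and after the switch to differentiation medium. The genes were taken by name and were *Hmgcs1*, *Mvd*, *Idi1*, *Fdps*, *Fdft1*, *Sqle*, *Cyp51* and *Insig1*, which are 8 of the 27179 rows of the expression table. They and the gene lists below were chosen with earlier results of these data known. Their counts beside the shares of all tested genes are therefore a description and not a test of the set. All 8 were detected in every input library and were among the 11406 genes tested. GM samples were myoblasts at 50% confluence in high glucose DMEM with 10% fetal bovine serum. 3d DM samples had been moved, after passing 90% confluence, to the same base medium with 2% horse serum for 3 days. All cultures were on dishes coated with rat tail collagen. Each state had 2 input libraries of polyadenylated RNA and 2 libraries of the same kind of RNA fragments precipitated with an antibody against m6A, the methylated adenosine of mRNA (MeRIP-seq). The labels do not say that the 2 replicates of a state came from separate cultures, so the spread between them may be technical. The 2 states differ in serum, in cell density and in differentiation, and these cannot be told apart.

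Cholesterol is built from acetyl-CoA through mevalonate, isoprenoid diphosphates, squalene and lanosterol. The genes of this route share a transcription factor, SREBP2, which is held in the endoplasmic reticulum with its escort SCAP while sterols are plentiful and is released when they are scarce. INSIG proteins are the anchors that hold SCAP there, and *Insig1* is itself a target of SREBP. Cells can cover their need for cholesterol by synthesis or by taking up lipoproteins from serum, and myoblasts add membrane as they fuse.

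The input libraries matched their labels for the state of the cells. *Myog*, *Myh3*, *Mymk* and *Ckm*, genes of differentiating muscle, were higher in both 3d DM libraries than in both GM libraries, with means 13.8-fold, 63.5-fold, 19.1-fold and 29.4-fold those of GM. The proliferation genes *Mki67* and *Ccna2* were lower in both, at 0.167 and 0.156 of the GM mean. The GM libraries were unlike each other in this respect. The summed value of the 5 differentiated muscle markers was 3481 in GM replicate 1 and 723 in GM replicate 2, against 60733 and 86821 in the 3d DM libraries. No adipocyte (of 4), leukocyte, endothelial, hepatocyte or osteoblast marker (of 2 each) passed the filter on low values, and *Adipoq*, *Plin1*, *Fabp4* and *Alb* were listed at 0 in all 4 libraries. Of the 2 neuronal markers, *Rbfox3* was listed at 0 and *Tubb3* was tested, with 1334 and 1785 in GM against 486 and 778 in 3d DM. All columns of the expression table sum to nearly the same total, from 12534657 to 12536233, so the sequencing depth is unknown. A single entry without a symbol took 24.4% to 41.3% of each column.

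The mean normalized value of all 8 cholesterol synthesis genes was higher in 3d DM than in GM, by 1.06-fold to 2.34-fold, although the sign for *Sqle*, the lowest, turned without GM replicate 2 or without 3d DM replicate 2. In such bulk RNA, a change in the share of cells that express a gene and a change in the RNA per cell cannot be told apart. *Hmgcs1*, *Mvd* and *Cyp51* passed the test, *Insig1*, *Idi1* and *Fdft1* were higher in both 3d DM libraries without passing it, and *Fdps* and *Sqle* overlapped between the states. Thus 3 of the 8 genes were called higher in 3d DM, where 7.01% of all tested genes were, and 0 were called higher in GM, where 9.96% were (limma, adjusted p under 0.05). At an unadjusted p under 0.05, limma gave 6 of the 8, all higher in 3d DM. The share of all tested genes at this unadjusted threshold was not computed, here or for the lists below. In 6 of the 8 genes both 3d DM libraries lay above both GM libraries, against 16.8% of all tested genes, and in 0 genes both GM libraries lay above both 3d DM libraries, against 37.0%. The median log2 fold change (GM minus 3d DM) of the 8 genes was -1.0, and that of all tested genes was 0.22.

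**Figure D1:**
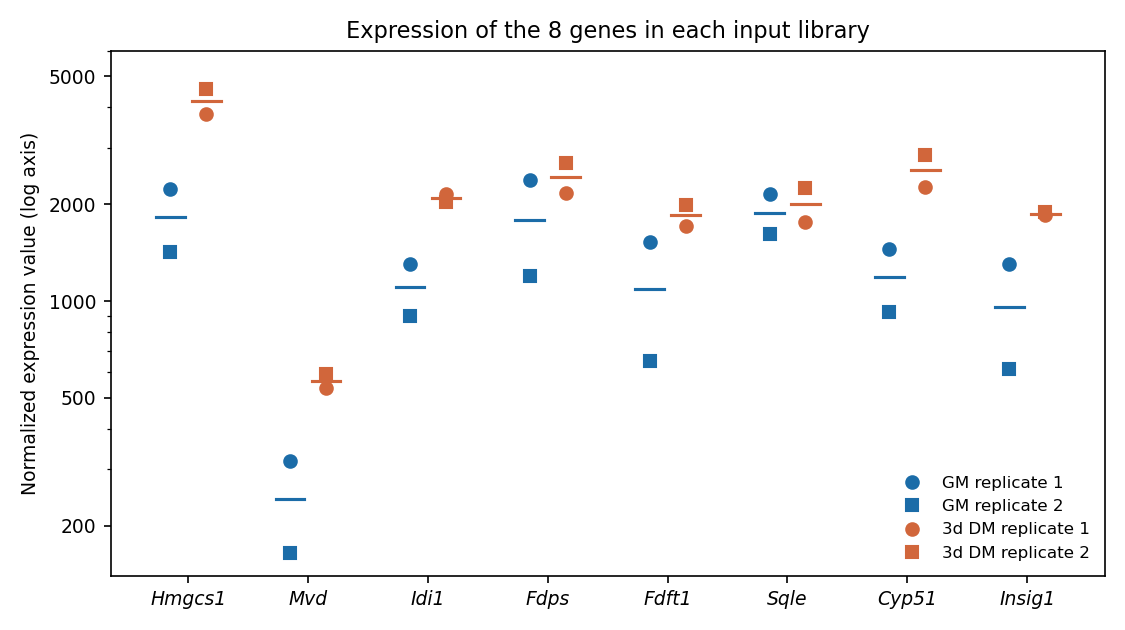
Normalized expression value (log axis) of each gene in the 2 GM (blue) and 2 3d DM (orange) input libraries, with circles for replicate 1, squares for replicate 2 and short lines for the mean of a state. The states are apart for *Hmgcs1*, *Mvd*, *Idi1*, *Fdft1*, *Cyp51* and *Insig1* and overlap for *Fdps* and *Sqle*, and the GM circle lies above the GM square in all 8 genes.

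*Hmgcs1* (Entrez 208715, chr13:119690351-119708260, GRCm38.p6) encodes the cytosolic synthase that makes HMG-CoA on the way to mevalonate. Its normalized value was 2227 and 1424 in GM against 3820 and 4568 in 3d DM. Both 3d DM libraries were above both GM libraries. The means were 1825 ± 568 (SD, n = 2) and 4194 ± 529 (SD, n = 2), a 2.30-fold higher value in 3d DM. The log2 fold change on the log2(value + 1) scale was -1.23 ± 0.41 (SE, adjusted p = 0.0205, limma).

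*Mvd* (Entrez 192156, chr8:122433596-122443422) encodes the decarboxylase that turns mevalonate diphosphate into isopentenyl diphosphate, the building block of isoprenoids. Its value was 319 and 165 in GM against 538 and 592 in 3d DM, and the states did not overlap. The 3d DM mean was 2.34-fold higher, the largest ratio among the 8 genes. The log2 fold change was -1.30 ± 0.45 (SE, adjusted p = 0.0289, limma). *Idi1* (Entrez 319554, chr13:8885606-8892396) encodes the isomerase that converts isopentenyl diphosphate to its reactive isomer. Its value was 1307 and 898 in GM against 2148 and 2037 in 3d DM. The 3d DM libraries were above the GM libraries and close to each other, but the log2 fold change of -0.95 ± 0.42 did not pass the threshold (SE, adjusted p = 0.112, limma).

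*Fdps* (Entrez 110196, chr3:89093588-89101967) encodes farnesyl diphosphate synthase, after which the route branches to ubiquinone, dolichol and the lipid anchors of proteins. Its values were 2374 and 1197 in GM against 2166 and 2688 in 3d DM. GM replicate 1 lay between the 3d DM libraries, so the states overlapped. The log2 fold change was -0.52, with a 95% interval from -1.33 to 0.30 (adjusted p = 0.484, limma). *Fdft1* (Entrez 14137, chr14:63145150-63181687) encodes squalene synthase, the enzyme that commits farnesyl diphosphate to sterols. It had 1528 and 650 in GM against 1716 and 1987 in 3d DM. The states did not overlap, although GM replicate 1 came closer to the 3d DM libraries than to GM replicate 2. Its log2 fold change was -0.89 ± 0.42 (SE, adjusted p = 0.148, limma). The gene models of *Fdft1* and *Ctsb* share bases at their ends, and whether strand was used in the counting is not given in the sources used here.

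*Sqle* (Entrez 20775, chr15:59315092-59331193) encodes squalene epoxidase, a control point of the sterol part of the route. It had 2145 and 1618 in GM against 1757 and 2247 in 3d DM. The states were interleaved. The ratio of the means was 1.06 and the log2 fold change -0.09, with a 95% interval from -0.91 to 0.72 (adjusted p = 0.929, limma). The estimates of *Mvd* and *Hmgcs1* lay outside this interval, but their own intervals, -2.18 to -0.41 and -2.04 to -0.42, overlapped it. A difference between *Sqle* and these genes was not tested. *Cyp51* (Entrez 13121, chr5:4080674-4104697) encodes the demethylase that acts on lanosterol. It had 1456 and 926 in GM against 2267 and 2851 in 3d DM, with no overlap, and the 3d DM mean was 2.15-fold higher. The log2 fold change was -1.13 ± 0.42 (SE, adjusted p = 0.0425, limma).

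*Insig1* (Entrez 231070, chr5:28071412-28078662), the regulator among the 8, had 1305 and 616 in GM against 1845 and 1886 in 3d DM. The 3d DM libraries differed little from each other and lay above both GM libraries. The 3d DM mean was 1.94-fold higher, with a log2 fold change of -1.06 ± 0.42 that did not pass the threshold (SE, adjusted p = 0.0675, limma).

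The GM libraries differed in the same direction in every one of these genes. All 8 were higher in GM replicate 1 than in GM replicate 2, by 1.33-fold to 2.35-fold with a median of 1.75, where the median over all tested genes was 1.16. Between the 3d DM libraries the ratio of replicate 2 over replicate 1 ran from 0.948 to 1.28, below the median of 1.42 over all tested genes. GM replicate 1 was also the GM library with the higher muscle markers, and the part of this in the result was not tested. Without GM replicate 1 the median log2 fold change of the 8 genes was -1.48, and without GM replicate 2 it was -0.60. The value without GM replicate 1 was -1.77 for *Mvd*, -1.50 for *Fdft1*, -1.60 for *Insig1* and -1.01 for *Fdps*, and without GM replicate 2 it was -0.82, -0.27, -0.52 and -0.02. With the study's filter of 3 libraries 2 of the 8 were called, without *Cyp51* (adjusted p = 0.0522, limma). No gene of the 8 was called when any of the 4 libraries was left out. The fit to the values as deposited gave each gene the error typical of its expression level, with almost no weight on its own 2 against 2 libraries. The p-values of that fit therefore do not measure the replicate spread of a single gene. This was read for that fit alone and not for the rescaled ones.

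The scale of the libraries bears on the size of the change. Median-of-ratios factors computed on the deposited values shifted GM against 3d DM by 0.21 on the log2 scale, and the median log2 fold change of all tested genes was then 0.02. After this rescaling 5 of the 8 genes were called higher in 3d DM, with *Idi1* and *Insig1* added (adjusted p = 0.0204 and 0.0318, limma), against 12.1% of all tested genes. Trimmed-mean factors also gave 5. The rescalings changed the error of the fit and not the scale alone. With median-of-ratios factors the log2 fold change of *Myog* went from -4.06 to -4.26, while its adjusted p went from 2.6e-20 to 0.00463 (limma). The parts of scale and of error in the added calls were not tested. Over all genes, 58.7% of the calls were higher in GM with the values as deposited, 49.3% after median-of-ratios and 48.5% after trimmed-mean rescaling. All 8 genes, *Fdps* and *Sqle* included, had both 3d DM libraries above both GM libraries after median-of-ratios rescaling, against 32.9% of all tested genes. *Sqle* then had 1792 and 1641 in GM against 2242 and 1986 in 3d DM, a log2 fold change of -0.30 (adjusted p = 0.277, limma), and *Fdps* had -0.72 (adjusted p = 0.102, limma).

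Levels between genes were compared per kilobase of merged exons (GENCODE M21 models). In GM the order of the mean value per kilobase was *Fdps* 424, *Hmgcs1* 397, *Sqle* 339, *Idi1* 315, *Insig1* 311, *Cyp51* 270, *Fdft1* 258 and *Mvd* 130. The libraries of every pair of neighbours in this order overlapped. In 3d DM the order was *Hmgcs1* 913, *Insig1* 603, *Idi1* 597, *Cyp51* 580, *Fdps* 577, *Fdft1* 438, *Sqle* 361 and *Mvd* 304. There, *Hmgcs1* stood apart from *Insig1*, *Fdps* from *Fdft1* and *Fdft1* from *Sqle*, and the other neighbours overlapped.

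The rest of the route was read from a list of 17 other sterol and mevalonate enzymes, of which 16 were tested. Of these, 4 were called higher in 3d DM, against 7.01% of all tested genes, and 0 in GM, against 9.96%. At an unadjusted p under 0.05 there were 5. In 11 of the 16 both 3d DM libraries lay above both GM libraries, against 16.8% of all tested genes. The median log2 fold change was -0.58. The 4 called genes all act after lanosterol. *Dhcr7*, the reductase of the last step in one branch, had 460 and 222 in GM against 976 and 881 in 3d DM (log2 fold change -1.53 ± 0.44 SE, adjusted p = 0.00474, limma). *Ebp*, a sterol isomerase, had 510 and 373 against 1268 and 1169 (-1.48 ± 0.43 SE, adjusted p = 0.00599, limma). *Nsdhl*, a sterol dehydrogenase, had 762 and 359 against 1175 and 1328 (-1.25 ± 0.43 SE, adjusted p = 0.0258, limma). *Tm7sf2*, a sterol reductase, had 89.7 and 31.1 against 146 and 165 (-1.53 ± 0.52 SE, adjusted p = 0.0231, limma). In all 4 the states did not overlap. *Lbr*, the lamin B receptor, which also acts as a sterol reductase, was 1 of 2 enzymes with both GM libraries on top, at 487 and 711 against 232 and 338 (adjusted p = 0.0867, limma). Of all tested genes, 37.0% had both GM libraries on top. With median-of-ratios rescaling 9 of the 16 enzymes were called higher in 3d DM, against 12.1% of all tested genes. None was called higher in GM, where 1341 of the 11406 tested genes were. Without GM replicate 2, 3d DM replicate 1 or 3d DM replicate 2, none of the 4 was called.

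**Figure D2:**
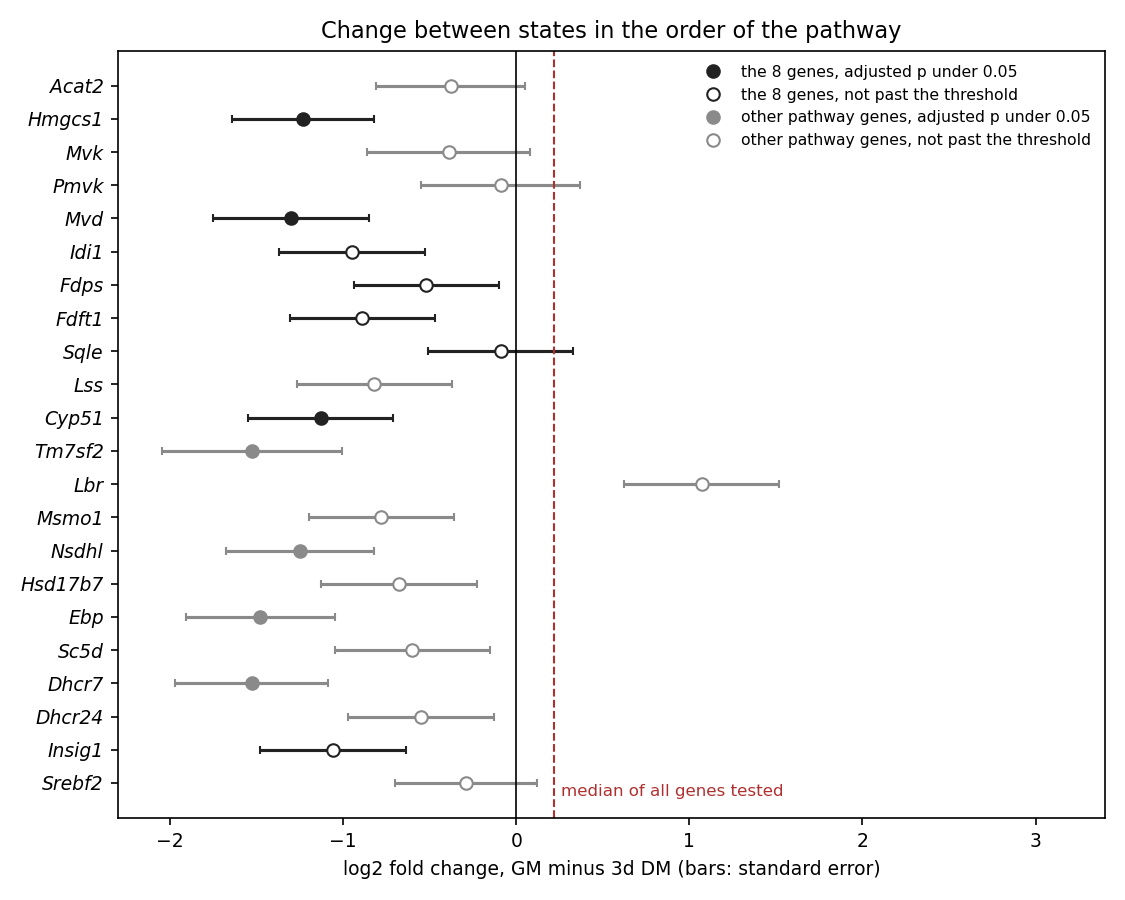
Log2 fold change (GM minus 3d DM) with its standard error for the 8 genes (black) and other genes (grey) in the order of the route, then *Insig1* and *Srebf2*; filled circles have an adjusted p under 0.05. All 8 genes lie left of the dashed line at 0.22, the median of all tested genes, from *Mvd* at -1.30 to *Sqle* at -0.09.

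Of 14 regulators of SREBP and of sterol synthesis, limma called 0 in either direction, while 9.96% of all tested genes were called in the GM direction and 7.01% in the 3d DM direction. Of the 14, 1 had an unadjusted p under 0.05, and the median log2 fold change was 0.27. In 6 both GM libraries lay above both 3d DM libraries and in 0 the reverse held, against 37.0% and 16.8% of all tested genes. With either rescaling 1 was called higher in GM, *Nfyb*, a subunit of NF-Y, at 330 and 317 in GM against 111 and 192 in 3d DM (adjusted p = 0.0781 as deposited and 0.0283 and 0.0316 after the rescalings, limma). *Srebf2*, the gene of SREBP2, had 2702 and 2007 in GM against 2312 and 3483 in 3d DM. With the values as deposited the states overlapped (log2 fold change -0.29, 95% interval -1.09 to 0.52, adjusted p = 0.748, limma). The log2 fold change of *Srebf2* was -0.49 after median-of-ratios and -0.52 after trimmed-mean rescaling. It passed the threshold with neither (adjusted p = 0.0843 with trimmed-mean factors, limma). Of 13 tested genes of uptake, transport and efflux, 1 was called higher in GM and 0 in 3d DM. This was *Lpl*, which encodes a lipoprotein lipase, at 134 and 30.1 in GM against 14.8 and 10.7 in 3d DM (log2 fold change 2.25 ± 0.63 SE, adjusted p = 0.0033, limma). The call was lost with either rescaling (adjusted p = 0.0771 and 0.0944, limma), and without GM replicate 1 the log2 fold change was 1.20. Over all 5 lists, 61 of 64 genes were tested, with 4 called higher in 3d DM, 2 in GM and a median log2 fold change of -0.01. Over all tested genes the shares called were 7.01% in the 3d DM direction and 9.96% in the GM direction.

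The genes with the most similar profile over the 4 input libraries, by the Euclidean distance of centred log2(value + 1) to the mean profile of the 8, were *Wipi1* at 0.008, *Cox14* at 0.042 and *Ak1* at 0.046, out of 8910 genes compared. *Wipi1* had 873 and 497 in GM against 1137 and 1308 in 3d DM. The same distance for the 8 genes themselves ran from 0.28 for *Insig1*, *Idi1* and *Cyp51* to 0.86 for *Sqle*, which stood farthest from the others.

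The promoters were searched for 2 motifs on both strands, in windows from 250 bases before to 50 bases after the start site (RefSeq, GRCm38.p6). The motifs were TCACNCCAC, a form of the sterol regulatory element that SREBP binds, and CCAAT, the box bound by NF-Y, a usual partner of SREBP. Windows were matched for 5 of the 8 genes, *Hmgcs1*, *Mvd*, *Idi1*, *Cyp51* and *Insig1*. The sterol element was found in 1 of the 5, *Hmgcs1*, and in 1.24% of all 32851 promoters. A CCAAT box was found in 5 of the 5 and in 37.4% of all promoters. These matches are a description of letters and not of binding. The element of *Hmgcs1* (chr13:119690204-119690232, plus strand) begins at position -137 and ends at -129, where negative positions lie before the start site. The boxes shown lie at chr8:122443435-122443459 for *Mvd* and chr5:4104712-4104736 for *Cyp51* (both minus strand), and at chr13:8885551-8885575 for *Idi1* and chr5:28071186-28071210 for *Insig1* (both plus strand). Each sequence is written 5′ to 3′ in the direction of its gene, with the motif in capitals, and ATTGG is CCAAT read on the other strand.
Hmgcs1 sterol element: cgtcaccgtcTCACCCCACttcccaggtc
Mvd CCAAT box: ggccagcgggCCAATcatatggcag
Cyp51 CCAAT box: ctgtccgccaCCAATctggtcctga
Idi1 CCAAT box: cctccagctgATTGGcgagcccggg
Insig1 CCAAT box: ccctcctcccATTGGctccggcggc

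The m6A peaks were read from the peak list of each immunoprecipitated library. A peak is a stretch of exons in which the authors' caller found more immunoprecipitated than input RNA, and its fold is that ratio. *Fdps*, *Fdft1*, *Sqle*, *Cyp51* and *Insig1* had a peak in all 4 libraries, which is 5 of the 8 genes against 42.0% of all tested genes. Of the 4455 tested genes with a mean value at or above that of *Mvd*, the lowest of the 8, 62.7% had one. *Hmgcs1* had a peak in 3 libraries and none in GM replicate 2, and *Mvd* had one in 3 libraries and none in GM replicate 1. *Idi1* had no peak in any library, against 24.9% of all tested genes and 14.7% of the 891 genes at or above its level.

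After merging lines that share at least 1 base, the 8 genes had 11 and 8 distinct peaks in the GM libraries and 12 and 14 in the 3d DM libraries. The states did not overlap. Over all genes, merged in the same way, there were 14399 and 12398 distinct peaks in GM against 14447 and 11000 in 3d DM, and these overlapped. The difference of -3.50 on the 8 genes had a two-sided exact permutation p of 0.33, the smallest that 2 libraries against 2 can give, and it was -2.0 without GM replicate 2. With peaks of a fold of at least 4 alone the difference was 0.50, in the other direction. These peaks were lower in fold than the typical peak of all genes. The folds were not compared with those of genes at a like expression level. Their median fold was 2.79 and 2.35 in GM against 1.81 and 2.04 in 3d DM, where the medians over the distinct peaks of all genes were 4.53 and 4.11 in GM against 3.92 and 4.38 in 3d DM. The difference between the states, 0.65, again had an exact permutation p of 0.33, and it was 0.43 without GM replicate 1. Each median was over the peaks of its own library, so the states were not compared on the same peaks. The highest fold on any of the 8 genes was 4.40, in *Sqle* in GM replicate 1.

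**Figure D3:**
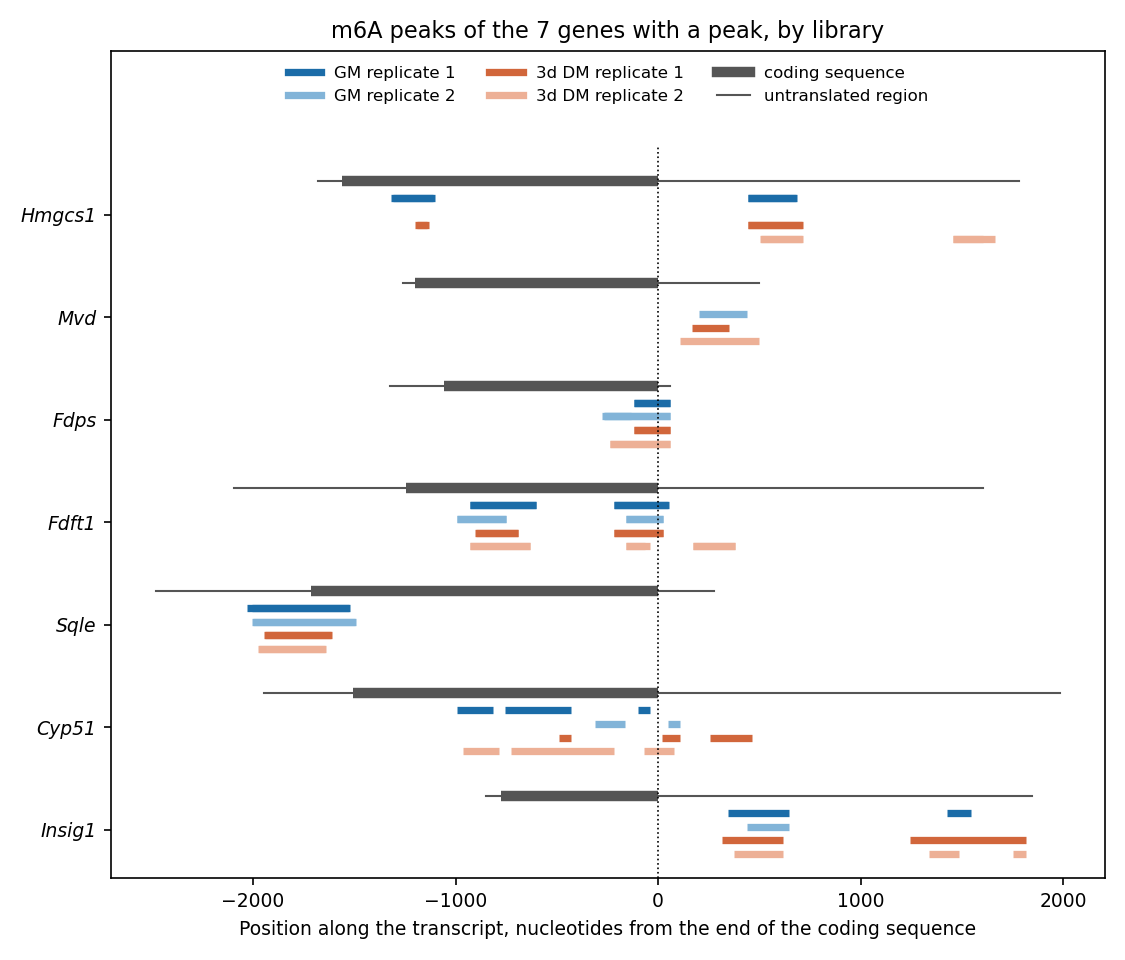
Position of the peaks along the transcript, in nucleotides from the end of the coding sequence, for the 7 genes with a peak, with a bar for each peak in GM (blues) and 3d DM (oranges) and the coding sequence as a thick grey line. The peaks of *Hmgcs1*, *Mvd* and *Insig1* lie mostly in the 3′ UTR, those of *Fdps* at the stop codon and those of *Sqle* at the start of the coding sequence.

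The peaks lay in different parts of the transcripts. *Sqle* had 1 region, at the border of the 5′ UTR and the coding sequence (chr15:59315531-59316070, mm10), with 305 bases common to all 4 libraries. *Fdps* had 1 region across the stop codon (chr3:89093588-89094309), with 178 common bases. *Fdft1* had a region in the coding sequence (chr14:63156616-63163426, introns included) and one at its end (chr14:63146700-63151151), with 151 and 120 common bases. *Insig1* and *Mvd* had their main regions in the 3′ UTR, that of *Insig1* at chr5:28077134-28077464 with 181 bases common to all 4 libraries, and that of *Mvd* at chr8:122433601-122433988 with 149 bases common to its 3 libraries. *Hmgcs1* had its region of 3 libraries in the 3′ UTR as well (chr13:119706917-119707189), with 184 common bases. *Cyp51* was different. Its peaks formed 2 regions that reached all 4 libraries only through chains of overlaps, with 0 bases common to all 4 and 0 common to both GM libraries.

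Most m6A in mRNA lies in a short consensus around GGAC, and the common bases of the regions were searched for it on the transcript strand. Over all bases in a peak of any library, not the common bases alone, GGAC occurred 5.24 times per kilobase. Outside the peaks on the same transcripts of the 7 genes it occurred 4.55 times. For GGACT, a frequent form of it, the rates were 1.21 and 1.02. No rate was computed for the common bases, and the differences were not tested. One window of 23 bases is shown for each of 6 regions, with GGAC and the base after it in capitals. The windows are matches of letters only, since a fold belongs to a whole peak and no methylated base was mapped. They lie at chr15:59315840-59315862 for *Sqle* (coding sequence, plus strand), chr14:63163319-63163341 for the first *Fdft1* region and chr14:63146888-63146910 for its region at the end of the coding sequence (both coding sequence, minus strand), chr5:28077308-28077330 for *Insig1* (3′ UTR, plus strand), chr13:119707140-119707162 for *Hmgcs1* (3′ UTR, plus strand) and chr8:122433867-122433889 for *Mvd* (3′ UTR, minus strand), all in mm10. The common bases of *Fdps* held no GGAC.
Sqle: gagccatgtGGACTtttcttggc
Fdft1, first region: caaggagaaGGACCgacaagtgc
Fdft1, end of coding sequence: ccaagatcaGGACAcagaacctt
Insig1: ctcccagtaGGACCtatagtgca
Hmgcs1: gggcgttgtGGACAcagctgcgg
Mvd: ccactcgatGGACCttccagcac

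In 7 regions of 5 of the genes all 4 libraries had a peak. For *Sqle*, the region with the GGACT window had a fold of 4.40 and 3.20 in GM against 1.98 and 3.37 in 3d DM. The *Fdps* region had 4.21 and 2.99 in GM against 2.15 and 3.15 in 3d DM. In both regions GM replicate 1 was highest, 3d DM replicate 1 lowest, and the states overlapped (two-sided exact permutation p = 0.67 for each). The *Insig1* region had 3.75 and 1.79 in GM against 2.95 and 2.17 in 3d DM, with the GM libraries at both extremes (exact permutation p = 1.0). The *Fdft1* region in the coding sequence had 2.97 and 1.83 in GM against 1.61 and 2.26 in 3d DM. Its region at the end of the coding sequence had 2.94 and 1.70 in GM against 1.76 and 1.40 in 3d DM. Both overlapped between the states (exact permutation p = 0.67 for each).

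The *Cyp51* regions had a fold of 2.79 and 2.89 in GM against 1.34 and 2.17 in 3d DM, and of 1.77 and 1.58 against 1.35 and 1.51. These were the 2 of the 7 regions without overlap of fold between the states, both higher in GM (exact permutation p = 0.33 for each, the smallest possible), against 30.9% of the 6055 regions of all genes with a peak in all 4 libraries. Since the libraries share no base in either *Cyp51* region, these values are not of 1 site. Among the 5 regions with a base common to all 4 libraries, 0 were without overlap, against 30.8% of all 5769 such regions.

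**Figure D4:**
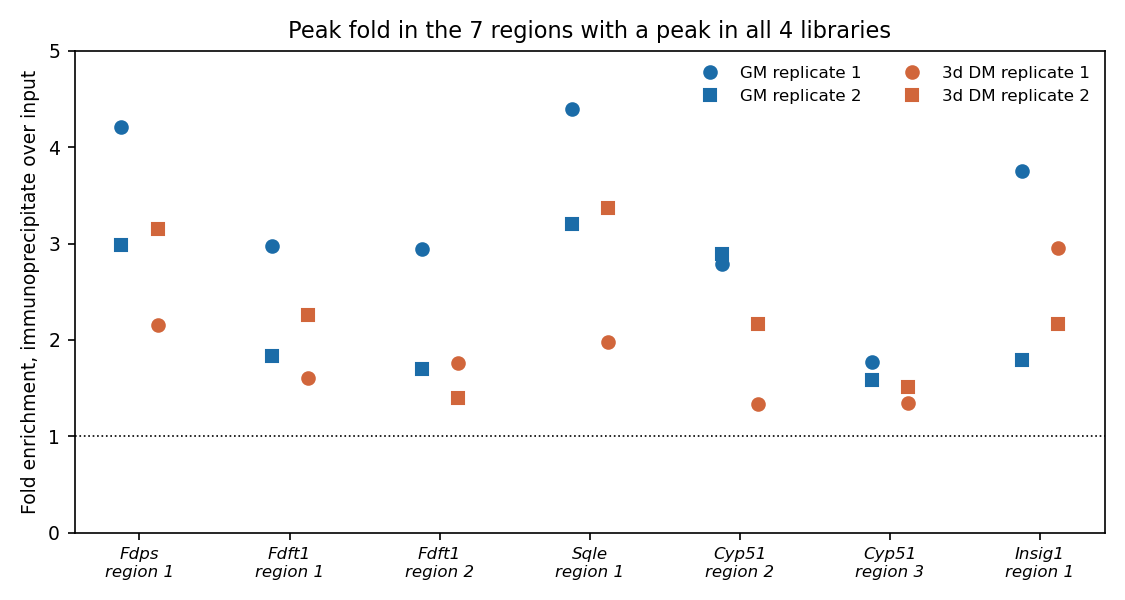
Fold enrichment of immunoprecipitated over input RNA in the 7 regions with a peak in all 4 libraries, for GM (blue) and 3d DM (orange), with circles for replicate 1 and squares for replicate 2; the dotted line marks a ratio of 1. The states overlap in 5 regions, and only the 2 *Cyp51* regions, at 2.79 and 2.89 against 1.34 and 2.17 and at 1.77 and 1.58 against 1.35 and 1.51, are apart.

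In the regions that some libraries lacked, *Mvd* had a fold of 2.87 in GM replicate 2 and of 1.86 and 4.18 in 3d DM, and *Hmgcs1* had 2.70 in GM replicate 1 and 1.76 and 1.87 in 3d DM. A second region of *Insig1* in the 3′ UTR (chr5:28078063-28078632) had 2.01 in GM replicate 1 and 2.86 and 1.74 in 3d DM. In the coding sequence, a region of *Hmgcs1* had 2.41 in GM replicate 1 and 1.27 in 3d DM replicate 1, and one of *Cyp51* had 1.97 in GM replicate 1 and 1.81 in 3d DM replicate 2. *Hmgcs1* in its 3′ UTR, *Fdft1* in its 3′ UTR and *Cyp51* in its 3′ UTR each had 1 region found in a single 3d DM library, at 2.08, 1.99 and 1.86. The lists give no read numbers, so a peak that is missing from a list was not detected and is not shown to be absent.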

How the data were processed

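MeRIP-seq and RNA-seq of C2C12 cells were analysed from the processed files, grouped by the labels. The authors aligned trimmed reads to mm10 with HISAT2 (version 2.1.0, also in the submitters' processing notes) and called peaks with exomePeak in each library against its input. For each peak and transcript the deposited lists give an enrichment fold (immunoprecipitate divided by input) and a p-value. The deposited expression table holds a normalized signal that the authors labelled TMM and made with edgeR. Its low values are neither whole nor multiples of a step, so reads and depth could not be recovered.

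A gene was tested if 2 or more of the 4 input libraries had a value of 25.1 or higher, equal to 2 cpm. The test was limma (3.58.1, run in R 4.3.3) with an intensity trend on log2(value + 1), and p-values were adjusted by Benjamini-Hochberg over the 11406 genes, with a threshold of 0.05. The study's filter of 3 libraries was an alternative. Peak numbers and folds were compared by two-sided exact permutation over libraries. Symbols were matched by Entrez identifier for 98.7% of the tested genes. Regions are peak lines of a gene that share at least 1 base of exon, chained over libraries. Exons came from GENCODE M21, and all member peaks fell within exons of the named transcripts. Promoters came from RefSeq.

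The 8 genes and the lists were chosen with earlier results of these data known. All 8 were to be named in full, with *Srebf2*, called list genes and the 3 nearest profiles with a mean value of at least 100. *Lbr* and *Nfyb* were named after their values were seen, and some list genes are not reported here by name. On simulated data of GM against 3d DM (11406 genes), limma recovered 157 of 200 genes with a planted fold of 4, with 3 false calls, and called 0 without planted changes. The simulated noise was normal with a spread set by the expression level, as the fit assumes, so few false calls were built in. Smaller folds, such as those of the 8 genes, were not planted, and their recovery is unknown. Alternatives were other filters, pseudocounts of 0.1 and 4, a replicate block, no trend, 2 rescalings, stricter peaks, an overlap of 50% and each library left out. Python 3.11.15, numpy 2.4.6, pandas 2.3.3, scipy 1.17.1 and matplotlib 3.10.9 were used.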

Additional observations from a re-analysis of the deposited data

How the results depend on the processing

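The number of the 8 genes called higher in 3d DM, 3, was 2 with the filter in 3 libraries, 0 with no filter on low values, 1 without the intensity trend (*Mvd*), 5 with either rescaling, and 0 to 0 with one library left out. With no filter the state genes *Myog*, *Myh3*, *Mymk*, *Ckm*, *Mki67* and *Ccna2* were not called either (adjusted p from 0.243 to 0.382, limma). The 0 of that setting is therefore not particular to the 8 genes, and the ranges of adjusted p below include that setting. The median log2 fold change of the 8 genes ran from -1.48 to -0.60 with one library left out. The log2 fold change of *Sqle* ran from -0.30 to 0.11 with one library left out and changed sign without GM replicate 2 (0.11) and without 3d DM replicate 2 (0.08), and those of *Srebf2* and *Fasn* ran from -0.58 to 0.01 and from -0.45 to 0.31. Over all alternatives the adjusted p (limma) ran from 0.00631 to 0.582 for *Hmgcs1*, 0.0131 to 0.764 for *Mvd*, 0.00671 to 0.717 for *Cyp51*, 0.0318 to 0.888 for *Insig1*, 0.0204 to 0.808 for *Idi1*, 0.0567 to 0.955 for *Fdft1*, 0.102 to 0.995 for *Fdps* and 0.222 to 1.00 for *Sqle*. Calls of other pathway genes higher in GM were 1 with the filter in 3 libraries, 0 with no filter, and 0 to 1 with one library left out. Those higher in 3d DM were 0 with no filter, 10 with either rescaling, and 0 to 6 with one library left out. Calls over all genes higher in GM were 74 with no filter and 44 to 573 with one library left out, and those higher in 3d DM were 524 with the filter in 3 libraries, 80 with no filter, 1377 and 1370 with the median-of-ratios and trimmed-mean factors, and 101 to 679 with one library left out. Fits with one library left out have fewer samples and assume that the lone library varies like the other state. For the other moves the cause was not tested.

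The replicate numbers gave only 2 pairs, the deviations of same-numbered libraries correlated at 0.29 over genes, and the numbers were not taken as a pairing. With the replicate number as a block, 0 of the 8 genes were called, other pathway genes gave 1 call in GM and 0 in 3d DM, and all genes gave 705 and 593.

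With peaks of a fold of at least 4, 0 genes had a peak in every library, the difference in distinct peaks was 0.50 in place of -3.50 (exact permutation p = 1.0), and the median fold could not be formed in every library. Regions without overlap of fold were 0 with a p at or under 1e-05, 0 with a fold of at least 4, and 3 to 8 with one library left out. The restriction to regions with a base common to all libraries, which gave 0, was added after seeing the data. The remaining 68 settings of the main counts and values kept their direction and their side of the threshold, or stayed within 1.5 times. Without read numbers, the precision of a single fold or value is unknown.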

Other observations

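Of 9 fatty acid genes that SREBP factors also control, limma called 0 in either direction, while 9.96% of all tested genes were called in the GM direction and 7.01% in the 3d DM direction. Of the 9, 4 had an unadjusted p under 0.05, and the median log2 fold change (GM minus 3d DM) was 0.01. *Scd2*, a fatty acid desaturase, had 12377 and 4810 in GM against 15001 and 16780 in 3d DM, while *Elovl6*, a fatty acid elongase, had 945 and 657 in GM against 350 and 366 in 3d DM. *Scd2* thus lay higher in both 3d DM libraries and *Elovl6* in both GM libraries, and neither passed the threshold (adjusted p = 0.0544 and 0.0573, limma), although *Elovl6* did with median-of-ratios rescaling (adjusted p = 0.0308, limma). *Fasn*, the fatty acid synthase, had 1846 and 3122 in GM against 2292 and 2773 in 3d DM and overlapped between the states.

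Among 9 genes of the branches that leave the route at farnesyl diphosphate, 1 was called, higher in GM, where 9.96% of all tested genes were. *Pdss1*, which makes the side chain of ubiquinone, had 80.6 and 165 in GM against 29.6 and 43.0 in 3d DM (log2 fold change 1.66 ± 0.55 SE, adjusted p = 0.0177, limma), and it did not pass with median-of-ratios rescaling (adjusted p = 0.0655, limma). *Soat1*, which esterifies cholesterol for storage, had 1095 and 971 in GM against 442 and 542 in 3d DM, and its states did not overlap (adjusted p = 0.0713, or 0.0194 with median-of-ratios rescaling, limma). These genes were named after their values were seen.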
